A study of Mus musculus with 12 samples.

Results

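Renal vesicles were set against S-shaped bodies, the pair of nephron stages that the series collected in pools, across every non-control probe set of the array. Members were taken by the sample labels alone: the 3 pooled arrays labelled S-shaped body and the 3 labelled renal vesicle, which are 6 of the 12 arrays of the series, with 12422 probe sets on each. All samples came from kidneys of wild-type Swiss Webster mouse embryos at E14.5 (Theiler stage 22). Each renal vesicle array (replicates 2, 3 and 4) and each S-shaped body array (replicates 1, 2 and 3) held RNA from a pool of 20 structures that had been microdissected by shape. The remaining arrays, 3 of unpooled collecting duct and 3 of single S-shaped bodies, carry the same genotype, strain and stage. The collecting duct arrays entered the fit for its estimate of the spread, and the single structures are used only for values set side by side. All RNA went through 2 rounds of T7 amplification before hybridization to the MG_U74Av2 array. The labels call a pooled sample a biological replicate and do not say which pools came from separate embryos or litters. The p-values of the fit therefore measure the spread between arrays of a group, with the unpooled collecting duct counted in.

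The nephron starts when mesenchymal progenitors that cap the ureteric bud tip condense and turn into a small hollow epithelial ball, the renal vesicle. Wnt4 drives that change, and Notch signalling, with Dll1 as a ligand, then helps to pattern the vesicle. The vesicle bends and lengthens through the comma shape into the S-shaped body, whose proximal limb forms podocytes and parietal cells of the glomerulus while the middle and distal limbs form tubule. Podocyte precursors secrete Vegfa, which draws endothelial cells into the cleft of the S-shaped body, and mesangial precursors enter with the vessel. Podocyte precursors leave the cell cycle as they differentiate, and podocytes build filtration slits on an actin skeleton.

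Values are log2 of the quantile-normalized intensity plus a pseudocount of 7.22, called the level below. A level of 2.85 means that the normalized value was 0 or negative. A change is the level in pooled S-shaped bodies minus the level in renal vesicles, with its standard error (SE) and a p-value from limma adjusted by the Benjamini-Hochberg method over all tested probe sets. A call needs an adjusted p under 0.05. Where a gene was not above background on any array of the dimmer group, the difference is given as at least so many fold against the background level. Levels of different probe sets are not compared with each other.

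The stage markers separated the groups as the labels name them. Wnt4 read 7.70, 7.35 and 7.82 on the renal vesicle arrays and 2.85 on each of the S-shaped body arrays, and was at least 7.76-fold lower in S-shaped bodies (adjusted p = 2.29e-06). The Notch ligand Dll1 read 7.61, 7.16 and 7.28 against 2.85 on each S-shaped body array, at least 6.44-fold lower (adjusted p = 2.29e-06). Flt1, a receptor for Vegfa on endothelial cells, was under background on the 3 renal vesicle arrays and read 8.50, 8.67 and 7.64 in S-shaped bodies, at least 13.2-fold higher (adjusted p = 1.10e-05). Synpo, an actin-associated protein of the podocyte foot process, read 4.43, 7.84 and 6.76 in renal vesicles and 9.61, 9.93 and 8.98 in S-shaped bodies (change 3.16 ± 0.67, adjusted p = 0.00357). No array of one group reached into the range of the other for these 4 genes. The gap was wide for Wnt4, Dll1 and Flt1, while for Synpo the renal vesicle arrays themselves spread over more than 3 log2 units.

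**Figure D1:**
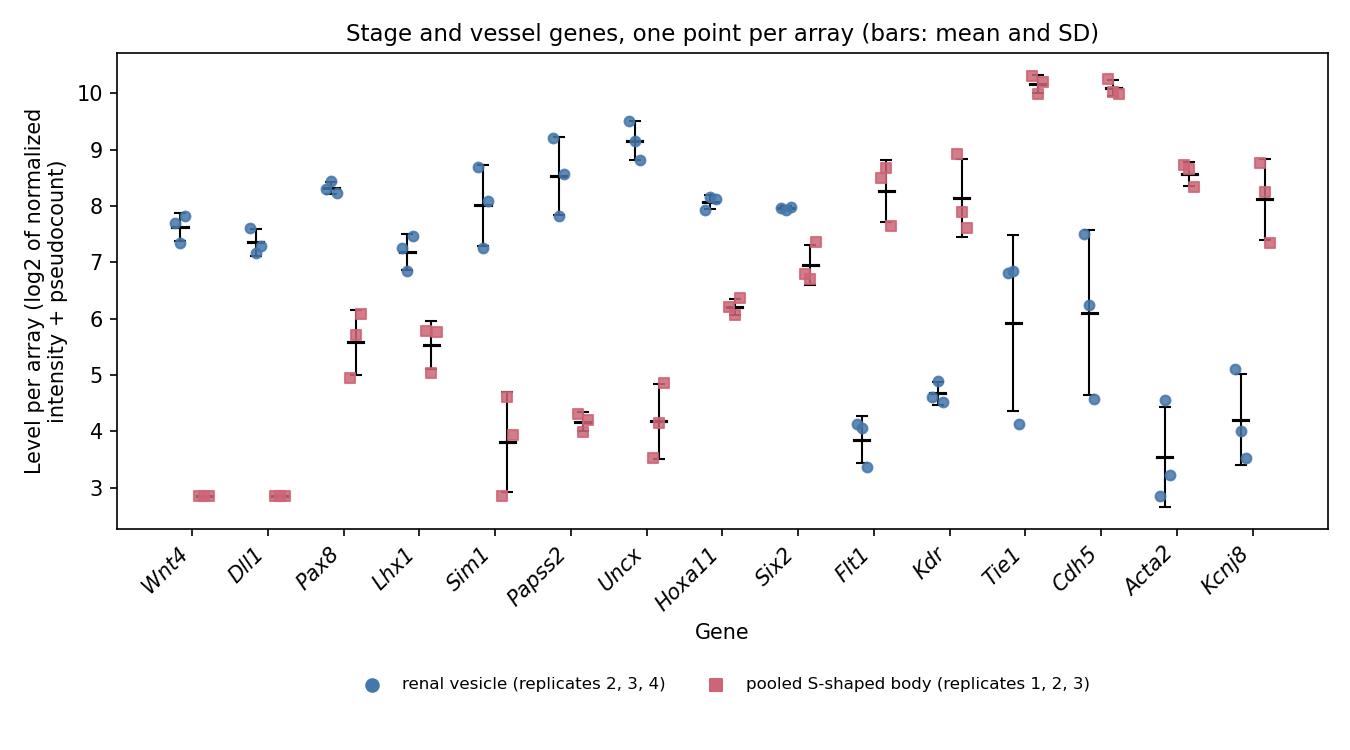
Level of 15 genes on each array, as log2 of normalized intensity plus the pseudocount, with 3 renal vesicle arrays as circles, 3 pooled S-shaped body arrays as squares, and bars for the mean and SD. The groups stay apart for each gene shown, and Wnt4 and Dll1 sit at 2.85 on all S-shaped body arrays.

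Of 9316 probe sets tested, 3423 were called, which is 36.7% of them, with 1634 higher and 1789 lower in S-shaped bodies. With 1 probe set per gene, 1207 of 6746 genes were higher (17.9%) and 1369 were lower (20.3%), and the groups did not overlap for 3269 genes (48.5%). These shares are the background for every count that follows. The gene lists were written with earlier results of these data known, so a count describes a list and does not test it. In 6 lists below 1 direction has a count of 0 by limma (higher for progenitors and mitosis, lower for endothelium, red blood cells, integrins and oxidative phosphorylation), and there 0 members passed an unadjusted p under 0.05 as well. The platelet list has a count of 0 in both directions and is given with its own unadjusted count. By comparison 4226 probe sets passed that unadjusted threshold in all, and the median change over all tested genes was −0.05. A change of at least 2-fold was reached by 751 of the higher and 786 of the lower genes. On the deposited scale, before the arrays were brought to a common distribution, 93.9% of calls were higher against 47.7% after it, and the median change was 0.94, so directions here are relative to that common distribution. Mean deposited intensity was 116 ± 12.9 on renal vesicle arrays and 225.5 ± 19.4 on S-shaped body arrays (SD, n = 3 each), and 58.3% and 56.7% of probe sets were above background. The beta-actin 3′ to middle control ratio was 8.58 ± 0.612 in renal vesicles and 3.67 ± 0.386 in S-shaped bodies (exact permutation test, two-sided, p = 0.1, the smallest that 3 against 3 arrays allow, and 0.2 after adjustment over 6 array measures). The Gapdh 3′ to 5′ ratio differed in the opposite sense, 10.96 ± 3.23 against 23.9 ± 3.82 (exact permutation p = 0.1, adjusted 0.2). Both of these ratios move with the group. The beta-actin 3′ to 5′ ratio was 39.6 ± 3.62 against 38.3 ± 7.65 (exact permutation p = 0.9, adjusted 0.9). The Gapdh 3′ to middle ratio was 6.77 ± 1.13 against 7.79 ± 1.67 (exact permutation p = 0.4, adjusted 0.48). The part of the control ratios in the calls was not tested. Because each array measures a whole structure, more cells of a type and more RNA per cell cannot be told apart.

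**Figure D2:**
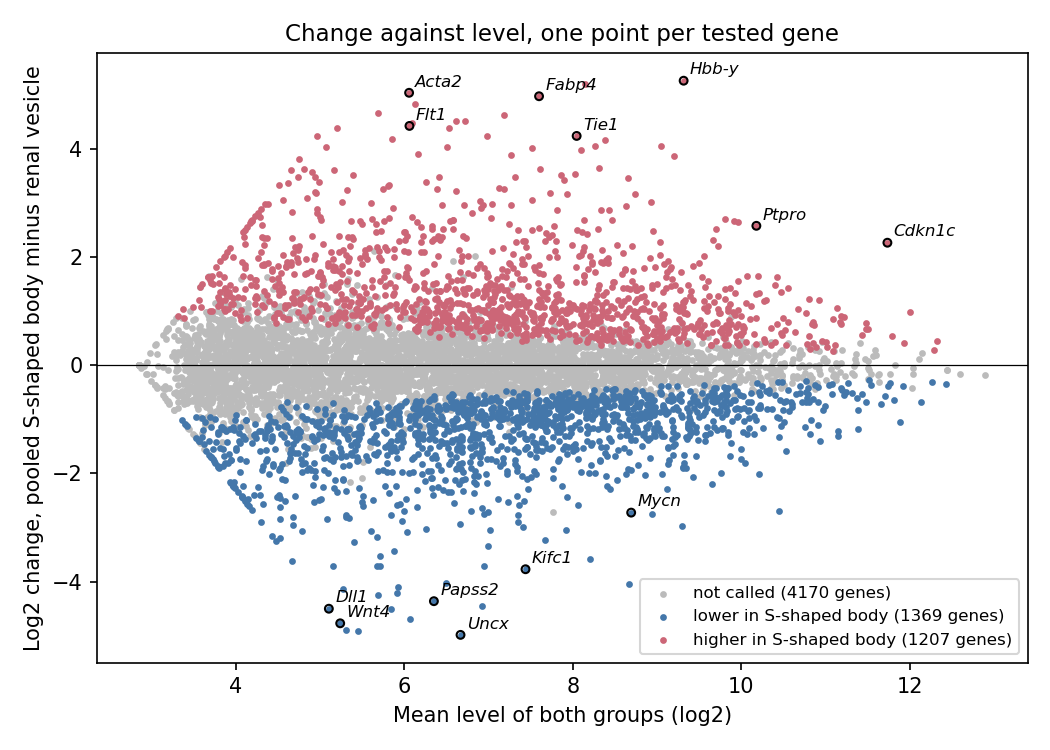
Change against the mean level of both groups for each of 6746 tested genes, with 1207 called higher in red, 1369 called lower in blue and the rest in grey. Acta2, Fabp4, Hbb-y, Flt1 and Tie1 lie at the upper edge, and Uncx, Wnt4, Dll1 and Papss2 at the lower edge.

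Genes of the early nephron were lower in S-shaped bodies. Of 17 tested members of that list, 11 were lower, 2 higher and 4 not called, with a median change of −1.35 (20 members are on the array and 3 fell under the filter on low signal). Pax8, a paired box factor that marks the induced mesenchyme and its epithelium, read 8.30, 8.44 and 8.23 in renal vesicles and 4.95, 5.70 and 6.08 in S-shaped bodies (change −2.74 ± 0.28, adjusted p = 4.10e-05). Lhx1, which encodes a LIM homeodomain protein that patterning of the vesicle depends on, read 7.25, 6.84 and 7.47 against 5.79, 5.03 and 5.77 (change −1.66 ± 0.28, adjusted p = 0.00105). Both stayed above background on the 3 S-shaped body arrays, unlike Wnt4 and Dll1, and neither gene's groups overlapped.

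Papss2, which makes the sulfate donor for sulfated proteoglycans, read 9.20, 7.82 and 8.57 in renal vesicles and was under background in S-shaped bodies, at least 14.6-fold lower (adjusted p = 6.83e-06). Sim1, a bHLH-PAS transcription factor, read 8.69, 7.25 and 8.09 against 2.85, 4.61 and 3.94 (change −4.21 ± 0.49, adjusted p = 9.71e-05). The Notch target Hey1 read 9.73, 10.33 and 10.03 against 8.51, 8.70 and 8.82, a smaller step without overlap (change −1.35 ± 0.32, adjusted p = 0.00672). Npy, a secreted neuropeptide, changed by −1.64 ± 0.33 (adjusted p = 0.00288); it and Sox4 were chosen after their values were seen. Ccnd1, cyclin D1, changed by −2.75 ± 0.29 (adjusted p = 5.03e-05) with the brighter of its probe sets, but the other one tested changed in the opposite direction.

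The 2 early nephron genes that were higher were Cdh4 and Sox4. Cdh4, R-cadherin, read 6.75, 5.75 and 6.30 in renal vesicles and 8.91, 8.68 and 8.69 in S-shaped bodies (change 2.49 ± 0.26, adjusted p = 5.03e-05). Sox4, an HMG-box transcription factor, changed by 1.38 ± 0.36 (adjusted p = 0.012). Lef1, a nuclear partner of beta-catenin, read 5.78, 5.59 and 5.56 against 6.30, 6.03 and 5.99 and was not called (change 0.46 ± 0.21, adjusted p = 0.115).

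Nephron progenitor genes were lower as well. Of 14 tested members 9 were lower, 0 higher and 5 not called, with a median change of −1.29 (16 on the array), and the mean level of the list was 7.10 to 7.39 on renal vesicle arrays and 5.53 to 5.85 on S-shaped body arrays. Without S-shaped body replicate 2, 1 member was higher. Uncx, a paired-type homeobox gene, had the largest fall: it read 9.51, 9.16 and 8.81 in renal vesicles and 3.52, 4.15 and 4.86 in S-shaped bodies (change −4.98 ± 0.34, adjusted p = 5.27e-06). Capn6, a calpain without protease activity, read 11.04, 10.38 and 10.93 against 7.35, 8.13 and 7.97 (change −2.97 ± 0.28, adjusted p = 2.94e-05). Gdnf, the growth factor that mesenchyme sends to the Ret receptor of the bud, changed by −1.88 ± 0.26 (adjusted p = 0.000262). Crym, a thyroid hormone binding protein, was at 2.85 on each S-shaped body array and at least 1.53-fold lower (adjusted p = 0.000409).

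Six2, which keeps progenitors from differentiating, read 7.97, 7.93 and 7.99 in renal vesicles and 6.79, 6.71 and 7.37 in S-shaped bodies, a change of −1.003 ± 0.20 (adjusted p = 0.00281). It remained above background on all 6 arrays. Hoxa11, active in kidney mesenchyme, read 7.92, 8.16 and 8.12 against 6.20, 6.06 and 6.36 (change −1.86 ± 0.25, adjusted p = 0.00026). The progenitor regulators Eya1 and Wt1 were not called. Eya1 read 6.39, 6.16 and 6.11 in renal vesicles and 6.42, 6.50 and 6.41 in S-shaped bodies (change 0.22 ± 0.19, adjusted p = 0.408). Pax2 was not above background on any of the 6 arrays.

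Among Hox genes, 5 of 22 tested were lower, 1 higher and 16 not called, which is near the background shares, with a median change of −0.18. The lower count was 3 without renal vesicle replicate 2 or 4 or without S-shaped body replicate 1, and the higher count was 0 and 2 without those renal vesicle arrays in turn. Hoxa10, the neighbour of Hoxa11 in its cluster, read 6.86, 7.72 and 7.43 against 5.75, 6.04 and 6.21 (change −1.34 ± 0.27, adjusted p = 0.00277). Hoxc6 was the member that was higher, reading 7.12, 7.77 and 7.79 against 8.66, 8.77 and 8.57 (change 1.11 ± 0.30, adjusted p = 0.0135); without renal vesicle replicate 2 its adjusted p was 0.0527.

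**Figure D3:**
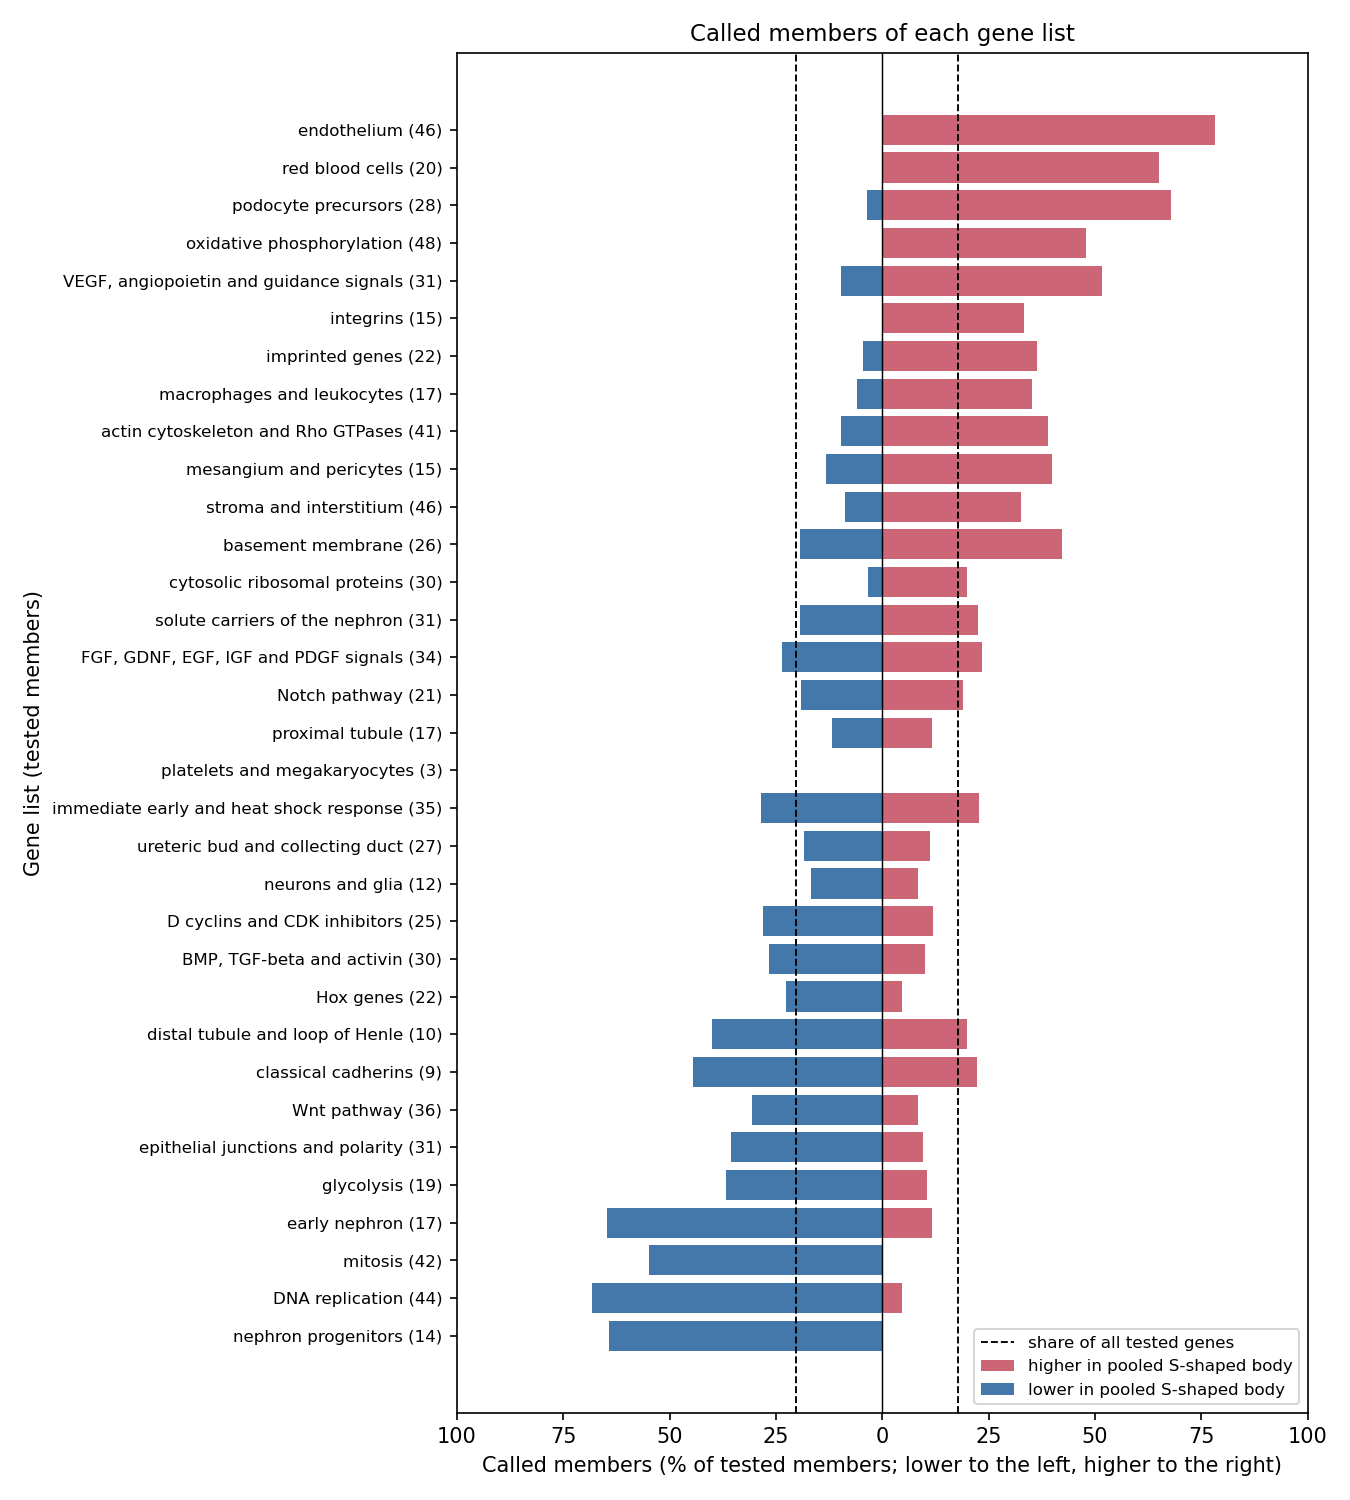
Share of the tested members of each gene list called higher (right) or lower (left) in pooled S-shaped bodies, in percent, with the number of tested members in brackets and dashed lines at the shares over all tested genes, 17.9% higher and 20.3% lower. Endothelium, podocyte and red blood cell lists extend far to the right, and progenitor, early nephron, DNA replication and mitosis lists far to the left.

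Podocyte precursor genes were higher in S-shaped bodies. Of 28 tested members 19 were higher, 1 lower and 8 not called, with a median change of 1.19 (36 on the array), and 23 were above background on all S-shaped body arrays. The lower member was Pdpn, podoplanin (change −1.69). Tcf21, a bHLH factor of podocytes and stroma, read 6.54, 8.36 and 6.49 in renal vesicles and 9.56, 9.50 and 10.35 in S-shaped bodies (change 2.67 ± 0.62, adjusted p = 0.00585). Cdkn1c, the CDK inhibitor p57 that podocytes switch on as they stop dividing, read 9.29, 11.99 and 10.54 against 12.99, 12.99 and 12.62 (change 2.26 ± 0.49, adjusted p = 0.00413). Every S-shaped body array lay above every renal vesicle array for both genes.

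Ptpro, a receptor tyrosine phosphatase of the podocyte surface, read 6.79, 10.95 and 8.94 in renal vesicles and 11.66, 11.53 and 11.21 in S-shaped bodies. Its change of 2.57 ± 0.79 was called (adjusted p = 0.0248), but not without renal vesicle replicate 2 or 4 or without any 1 of the S-shaped body arrays (adjusted p 0.0523 to 0.0697). The change fell to 1.52 without renal vesicle replicate 2. Foxd1, a forkhead factor of stroma that podocytes also express, read 4.67, 7.98 and 6.92 against 9.11, 8.85 and 8.51 (change 2.30 ± 0.63, adjusted p = 0.0147). It was 1.37 without renal vesicle replicate 2, and without S-shaped body replicate 1 the adjusted p was 0.0502. Vegfa read 6.17, 7.59 and 6.73 against 8.28, 8.16 and 7.61 (change 1.18 ± 0.36, adjusted p = 0.0241). The Vegfa call was lost without renal vesicle replicate 2 or 4 or S-shaped body replicate 1 or 2 (adjusted p 0.0672 to 0.0901).

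The spread among renal vesicle arrays had a common form in this list. Of the 19 podocyte genes that were higher, 15 had their highest renal vesicle level on replicate 3 and 12 their lowest on replicate 2. Over all 1207 genes that were higher, replicate 3 was the highest renal vesicle array for 545, or 45.2%. The mean level of the list was 7.05, 8.18 and 7.56 on the renal vesicle arrays and 8.88, 8.76 and 8.53 on the S-shaped body arrays. Without renal vesicle replicate 3 the list had 20 higher and 1 lower of 29 tested, and without S-shaped body replicate 1 the higher count was 11.

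Some podocyte regulators were not called. Wt1, a zinc finger factor of progenitors and podocytes, read 7.94, 9.98 and 8.50 in renal vesicles and 8.28, 7.87 and 8.37 in S-shaped bodies (change −0.63 ± 0.41, adjusted p = 0.263). The forkhead gene Foxc2 read 10.08, 10.92 and 10.37 against 10.70, 10.85 and 10.78 (change 0.32 ± 0.24, adjusted p = 0.335). Dag1, dystroglycan, and the membrane protein Gas1 changed by 0.20 ± 0.15 and 0.28 ± 0.15 (adjusted p = 0.339 and 0.176), and the groups of all 4 genes overlapped. Podxl, the podocyte sialomucin, fell under the filter on low signal.

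**Figure D4:**
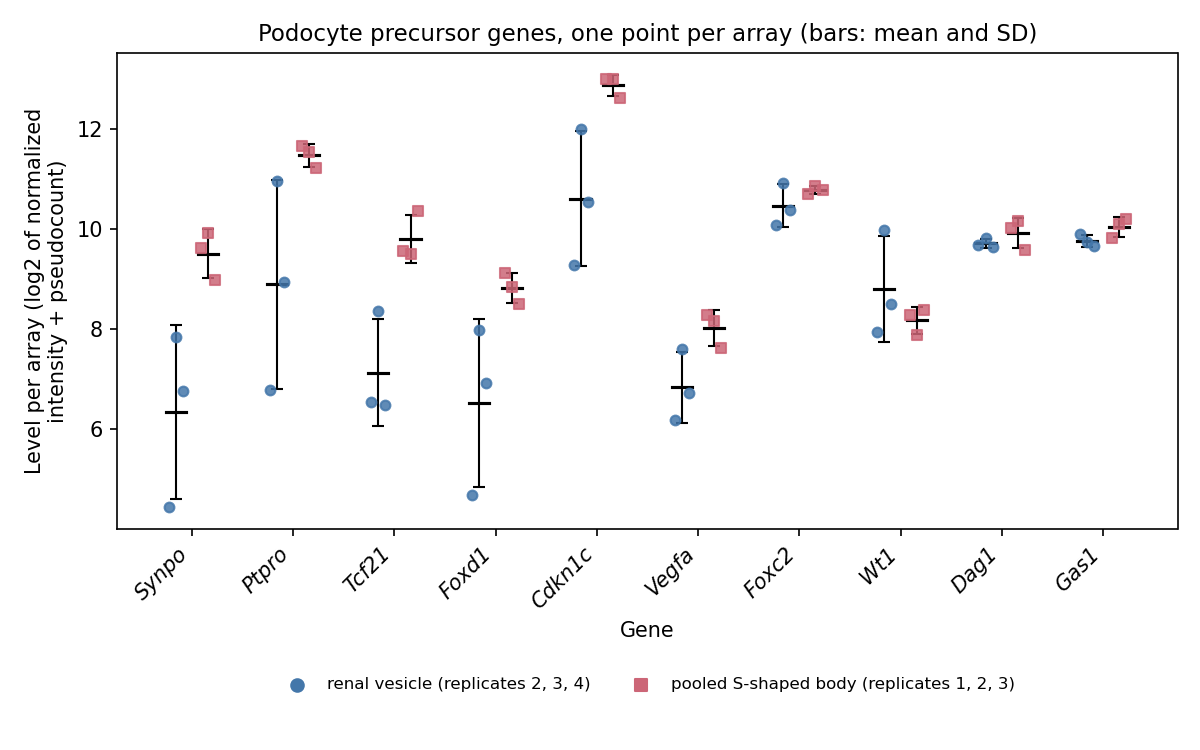
Level of 10 podocyte precursor genes on each array, as log2 of normalized intensity plus the pseudocount, with renal vesicles as circles, pooled S-shaped bodies as squares and bars for the mean and SD. Renal vesicle replicate 3, the middle circle, is the highest of its group for Synpo, Ptpro, Tcf21, Foxd1, Cdkn1c, Vegfa, Foxc2, Wt1 and Dag1, and the groups overlap for Foxc2, Wt1, Dag1 and Gas1.

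Endothelial genes were higher in S-shaped bodies. Of 46 tested members 36 were higher, 0 lower and 10 not called, with a median change of 2.02, or 1.71 with members under background in renal vesicles set at their bound (52 on the array). Of these genes 39 were above background on all S-shaped body arrays and 23 on all renal vesicle arrays, while 17 were above it on none of the renal vesicle arrays. The mean level of the list was 5.41, 5.49 and 5.02 on renal vesicle arrays and 7.61, 7.34 and 7.13 on S-shaped body arrays. The sequence before the transcription start is shown for the receptor genes Flt1 and Tie1, since both rose here and ETS factors, which bind a GGAA core, are general regulators of endothelial genes. Each line gives 250 bases that end just before the first start listed for the gene, from RefSeq on GRCm38.p6. The bases run 5′ to 3′ on the strand of the gene, with AGGAAG on either strand in capitals. For Flt1 this is not the outermost start, since the annotated span of the gene reaches 147726438.
Flt1, chr5:147726012-147726261, minus strand: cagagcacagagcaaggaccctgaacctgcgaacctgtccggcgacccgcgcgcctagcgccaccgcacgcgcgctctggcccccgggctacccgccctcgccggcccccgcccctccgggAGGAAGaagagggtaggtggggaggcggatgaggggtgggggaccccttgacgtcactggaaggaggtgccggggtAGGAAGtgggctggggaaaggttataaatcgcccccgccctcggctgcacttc
Tie1, chr4:118489850-118490099, minus strand: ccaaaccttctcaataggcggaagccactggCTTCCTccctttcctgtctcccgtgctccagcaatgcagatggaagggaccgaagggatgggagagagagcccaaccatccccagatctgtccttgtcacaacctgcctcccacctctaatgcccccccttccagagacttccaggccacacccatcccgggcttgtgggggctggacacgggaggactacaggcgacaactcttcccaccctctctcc
AGGAAG was found 2 times before Flt1, at 129 to 124 and at 53 to 48 bases before the start, and 1 time before Tie1, at 219 to 214 on the other strand. Of the 29 endothelial list members with an entry in that table, 13 held the word (44.8%), and of the 19 such members that were higher 7 did (36.8%), against 7879 of 27025 genes in all (29.2%). A match describes the letters of the window and is no evidence of binding.

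The receptors of this lineage rose together. Kdr, the main signalling receptor for Vegfa, read 4.60, 4.90 and 4.51 in renal vesicles and 8.93, 7.90 and 7.60 in S-shaped bodies (change 3.47 ± 0.45, adjusted p = 0.000185). Tie1, an orphan partner of the angiopoietin receptor, read 6.81, 6.85 and 4.13 against 10.31, 9.98 and 10.20 (change 4.23 ± 0.59, adjusted p = 0.000276). Tek, the angiopoietin receptor itself, moved less, from 4.94, 4.64 and 5.05 to 6.19, 6.36 and 6.09 (change 1.34 ± 0.26, adjusted p = 0.00239). None of these receptors overlapped between the groups. Ednrb, the endothelin B receptor, was under background on all renal vesicle arrays and read 10.17, 7.97 and 7.47 in S-shaped bodies, at least 15.9-fold higher (adjusted p = 0.000119).

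Adhesion and identity genes followed. Cdh5, VE-cadherin of endothelial junctions, read 7.50, 6.24 and 4.58 in renal vesicles and 10.26, 10.03 and 9.98 in S-shaped bodies (change 3.98 ± 0.54, adjusted p = 0.00026). Pecam1, a junctional adhesion molecule of endothelium, read 5.35, 4.43 and 4.52 against 7.98, 6.77 and 6.93 (change 2.46 ± 0.40, adjusted p = 0.000752). The transcription factor Sox18 read 3.42, 4.66 and 3.48 against 7.99, 8.36 and 8.63 (change 4.47 ± 0.38, adjusted p = 1.57e-05). Cdh5 and Tie1 differed by over 2 log2 units among the renal vesicle arrays, and replicate 4 was lowest for both. Klf2, a factor that blood flow induces in endothelium, was at 2.85 on every renal vesicle array and read 7.38, 7.37 and 6.49 in S-shaped bodies, at least 5.78-fold higher (adjusted p = 6.24e-06). Icam2, an adhesion molecule chosen here after its values were seen, was at least 10.5-fold higher (adjusted p = 2.29e-06).

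Cldn5, the claudin of endothelial tight junctions, was not called. It read 9.35, 11.20 and 10.13 in renal vesicles and 10.41, 10.46 and 10.36 in S-shaped bodies (change 0.18 ± 0.36, adjusted p = 0.724). Its sign turned with 75th percentile scaling (−0.075) and without renal vesicle replicate 2 (−0.26), and without renal vesicle replicate 3 it was called at 0.67 (adjusted p = 0.0457).

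Vascular growth factors and guidance cues overlap with the endothelial list. Of 31 tested, 16 were higher, 3 lower and 12 not called, with a median change of 0.70. The higher count was 9 without renal vesicle replicate 4 or S-shaped body replicate 2, and 10 without S-shaped body replicate 1. Efnb1, an ephrin ligand of Eph receptors, read 5.95, 6.62 and 5.74 in renal vesicles and 9.80, 9.74 and 9.33 in S-shaped bodies (change 3.52 ± 0.27, adjusted p = 8.10e-06), with no overlap.

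Mesangial and pericyte genes were called higher more often than lower, though most were not called higher. Of 15 tested members 6 were higher, 2 lower and 7 not called, with a median change of 0.70. The lower count was 1 without any 1 of the arrays except S-shaped body replicate 1. Acta2, smooth muscle actin, read 2.85, 4.55 and 3.22 in renal vesicles and 8.73, 8.66 and 8.33 in S-shaped bodies (change 5.03 ± 0.39, adjusted p = 8.41e-06). Kcnj8, a potassium channel subunit of pericytes, read 5.10, 3.996 and 3.52 against 8.76, 8.24 and 7.34 (change 3.91 ± 0.46, adjusted p = 9.95e-05). Each gene's groups were separate. Ebf1, a transcription factor of stromal and perivascular cells, was at 2.85 in renal vesicles and at least 1.74-fold higher (adjusted p = 0.000322). Pdgfrb, the PDGF receptor that mesangial recruitment needs, read 4.30, 4.29 and 4.47 against 5.83, 4.69 and 5.05 and was not called (adjusted p = 0.0627). It was under background on the renal vesicle arrays and above it on the S-shaped body arrays, a bound of at least 1.56-fold, and without S-shaped body replicate 2 it was called (adjusted p = 0.032). Tagln, another smooth muscle gene, changed by 0.70 ± 0.30 (adjusted p = 0.0955). Notch3, also of this list, changed by −0.23 ± 0.23 (adjusted p = 0.481), and neither gene was called.

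Stromal genes gave 15 higher, 4 lower and 27 not called of 46 tested, with a median change of 0.39. Postn, a matrix protein of mesenchyme, read 5.42, 5.97 and 5.31 in renal vesicles and 9.62, 8.88 and 8.66 in S-shaped bodies (change 3.48 ± 0.26, adjusted p = 7.98e-06). Col5a2, a fibrillar collagen chain, read 5.30, 6.05 and 5.12 against 9.32, 9.02 and 7.94 (change 3.27 ± 0.40, adjusted p = 0.000125). Pdgfra, a receptor of interstitial fibroblasts, read 4.93, 6.18 and 4.45 against 7.03, 8.22 and 7.29 (change 2.33 ± 0.44, adjusted p = 0.00184). The groups did not overlap for these genes, whereas most fibrillar collagens of the list were not called. The repressor Zeb1 changed by 2.86 ± 0.30 (adjusted p = 5.12e-05), but the other of its tested probe sets went the opposite way. Bmp4 was among the 4 stromal genes that were lower, and is given with its pathway below.

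Blood cell genes rose with the vessel genes. Of 20 tested red blood cell genes 13 were higher, 0 lower and 7 not called, with a median change of 1.18, or 0.79 with bounds. The mean level of the list was 5.0004 to 5.56 on renal vesicle arrays and 6.46 to 6.87 on S-shaped body arrays. Hbb-y, an embryonic beta-like globin, read 9.26, 4.75 and 6.05 in renal vesicles and 11.78, 11.82 and 12.23 in S-shaped bodies (change 5.26 ± 0.93, adjusted p = 0.00132). Hba-a1, an adult alpha globin, read 7.07, 6.20 and 3.40 against 10.996, 10.51 and 10.73 (change 5.19 ± 0.69, adjusted p = 0.000224). The renal vesicle arrays differed widely among themselves in globin signal, and each was still below every S-shaped body array. The adult beta globin Hbb-b2 and the embryonic alpha-like Hba-x changed by 3.87 ± 0.52 and 2.32 ± 0.41 (adjusted p = 0.000235 and 0.00132). Globin genes are near-identical copies, so the probe sets may not tell neighbours in a cluster apart.

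Macrophage and leukocyte genes gave 6 higher, 1 lower and 10 not called of 17 tested, with a median change of 0.05, and 15 of the 32 on the array fell under the filter. The lower count was 0 without renal vesicle replicate 4 or S-shaped body replicate 3. Lcp1, a leukocyte actin bundler from the actin list, was under background in renal vesicles and read 6.99, 7.50 and 7.67 in S-shaped bodies, at least 7.15-fold higher (adjusted p = 1.83e-05). Ctss, a lysosomal protease of macrophages, read 6.42, 6.97 and 6.63 in S-shaped bodies and stayed below background on the renal vesicle side, at least 4.37-fold higher (adjusted p = 3.14e-05). Laptm5, a lysosomal membrane protein of blood cells, read 6.01, 6.04 and 2.85 against 7.79, 7.86 and 8.11 (change 2.95 ± 0.68, adjusted p = 0.00579), and the change was 1.89 without renal vesicle replicate 4. The complement gene C1qb changed by 1.36 ± 0.33 (adjusted p = 0.00841), while Cd68, Ptprc and Lyz2, which define these cells, were under the filter. Cx3cr1 and Cd52 of this list were above background on all 6 arrays and were not called. They changed by −0.11 ± 0.30 and −0.17 ± 0.28 (adjusted p = 0.81 and 0.664). In collecting duct Laptm5 averaged 7.60 and C1qb 5.55, against 7.92 and 5.36 in S-shaped bodies, while Ctss was under background there. Of platelet genes 0 of 3 tested were called by limma (1 higher at an unadjusted p under 0.05, and 1 called higher without renal vesicle replicate 2), and of neuronal genes 1 was higher and 2 lower of 12. The part that blood, macrophage, vessel or stromal RNA had in other changes was not tested.

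Basement membrane genes were called higher more often than lower. Of 26 tested members 11 were higher, 5 lower and 10 not called, with a median change of 0.58. The lower count is near the background share. The higher count was 7 without renal vesicle replicate 4 or S-shaped body replicate 1, and 6 without S-shaped body replicate 2. The laminin chain Lama1, found in the first nephron epithelium, read 8.68, 7.61 and 7.56 in renal vesicles and 5.19, 6.25 and 5.82 in S-shaped bodies (change −2.20 ± 0.49, adjusted p = 0.00504). Nid1, nidogen, which links laminin to collagen IV, read 6.03, 7.26 and 6.09 against 8.80, 8.40 and 8.25 (change 2.02 ± 0.33, adjusted p = 0.000835). Lama1 and Nid1 thus moved in opposite directions, each without overlap. Npnt, nephronectin, a ligand of integrin alpha 8 beta 1, changed by 1.51 ± 0.33 (adjusted p = 0.00412). Col4a1 changed by 0.53 ± 0.10 (adjusted p = 0.00168), and that call was lost with either scaling to the 75th percentile or to a trimmed mean. Lama3, at least 1.65-fold higher, was not above background on the renal vesicle side (adjusted p = 0.000497).

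Cadherins went both ways. Of 9 tested, Cdh4 and Cdh5 were higher, and Cdh1, Cdh2, Cdh6 and the protocadherin Pcdh7 were lower, with 3 not called. Without renal vesicle replicate 2 or S-shaped body replicate 1 or 2, 2 were lower. Cdh2, N-cadherin, read 8.24, 7.71 and 7.27 in renal vesicles and 5.81, 5.53 and 5.50 in S-shaped bodies (change −2.13 ± 0.27, adjusted p = 0.00018). Cdh1, E-cadherin, read 6.80, 6.70 and 6.50 against 5.99, 6.01 and 6.11 (change −0.63 ± 0.19, adjusted p = 0.022), a call lost without any 1 of those 3 arrays (adjusted p 0.0573 to 0.0623). Cdh6, a marker of proximal precursors, exceeded background on the renal vesicle but not the S-shaped body arrays and was at least 1.19-fold lower (adjusted p = 0.0344). Its call was lost when any 1 of the 6 arrays was left out (adjusted p 0.054 to 0.0921).

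Integrin subunits gave 5 higher and 0 lower of 15 tested, with a median change of 0.24. Itgb5 read 6.60, 7.27 and 6.52 in renal vesicles and 8.61, 8.35 and 8.49 in S-shaped bodies (change 1.69 ± 0.22, adjusted p = 0.000223). Itga3, the laminin receptor subunit of podocytes, changed by 0.99 ± 0.28 (adjusted p = 0.0161), which was not called without S-shaped body replicate 1 or 3 (adjusted p = 0.0647 and 0.0626). Itga7, another laminin receptor subunit, changed by 1.77 ± 0.41 (adjusted p = 0.00573). The count was 2 without S-shaped body replicate 1.

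Epithelial junction and polarity genes were more often lower than higher. Of 31 tested members 11 were lower, 3 higher and 17 not called, with a median change of −0.44. Without renal vesicle replicate 2 or 4, 1 was higher. Epcam, an epithelial adhesion molecule, read 5.56, 7.28 and 7.41 in renal vesicles and 3.38, 4.72 and 3.65 in S-shaped bodies (change −2.83 ± 0.47, adjusted p = 0.000831). Llgl2, a basolateral polarity protein, read 7.67, 6.91 and 7.02 against 4.53, 5.30 and 4.01 (change −2.59 ± 0.33, adjusted p = 0.00018). Prom1, a protein of apical membrane protrusions, read 9.89, 9.07 and 9.88 against 7.37, 7.96 and 7.79 (change −1.91 ± 0.23, adjusted p = 0.000123). These genes were lower on every S-shaped body array than on any renal vesicle array.

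Tubule and duct genes showed no common direction. Of 17 tested proximal tubule genes 2 were higher, 2 lower and 13 not called, and 11 on the array fell under the filter. The higher count was 4 without renal vesicle replicate 3 and 1 without renal vesicle replicate 4 or S-shaped body replicate 1 or 2, and the lower count was 1 without any 1 of those arrays or S-shaped body replicate 3. Aldh1a1, a retinaldehyde dehydrogenase, read 2.85, 6.99 and 4.77 in renal vesicles and 9.98, 9.86 and 8.61 in S-shaped bodies (change 4.61 ± 0.81, adjusted p = 0.00127). Gatm, which makes the creatine precursor in proximal tubule, changed by −0.95 ± 0.24 (adjusted p = 0.0107). Of 10 distal tubule genes 4 were lower and 2 higher, and 2 were lower without S-shaped body replicate 2. The homeobox gene Irx3 of the intermediate segment changed by −1.02 ± 0.32 (adjusted p = 0.0277), lost without renal vesicle replicate 2 or 4 or S-shaped body replicate 1 or 2 (adjusted p 0.0752 to 0.0918). Egf read 4.72, 4.02 and 4.49 against 8.51, 8.15 and 5.29 (change 2.91 ± 0.70, adjusted p = 0.00747), with the other of its tested probe sets in the opposite direction.

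Of 27 genes typical of the bud and its ducts 5 were lower, 3 higher and 19 not called, and the lower count was 8 without renal vesicle replicate 2 or 4. The mean level of the list was 4.77 to 5.79 in renal vesicles, 4.57 to 5.09 in S-shaped bodies and 7.68 to 7.70 in collecting duct. Gata3, a factor of the duct and of mesangial precursors, read 5.15, 6.09 and 4.73 against 8.09, 8.16 and 7.25 (change 2.51 ± 0.35, adjusted p = 0.000277). Krt7, a keratin, read 2.85, 7.51 and 4.22 against 9.26, 9.41 and 8.62 (change 4.24 ± 0.86, adjusted p = 0.00287). Aldh1a1 and Krt7, like the podocyte genes, were highest in renal vesicles on replicate 3 and lowest on replicate 2. Wfdc2, a secreted protein of distal epithelium, was under background in S-shaped bodies and at least 1.76-fold lower (adjusted p = 0.000105).

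**Figure D5:**
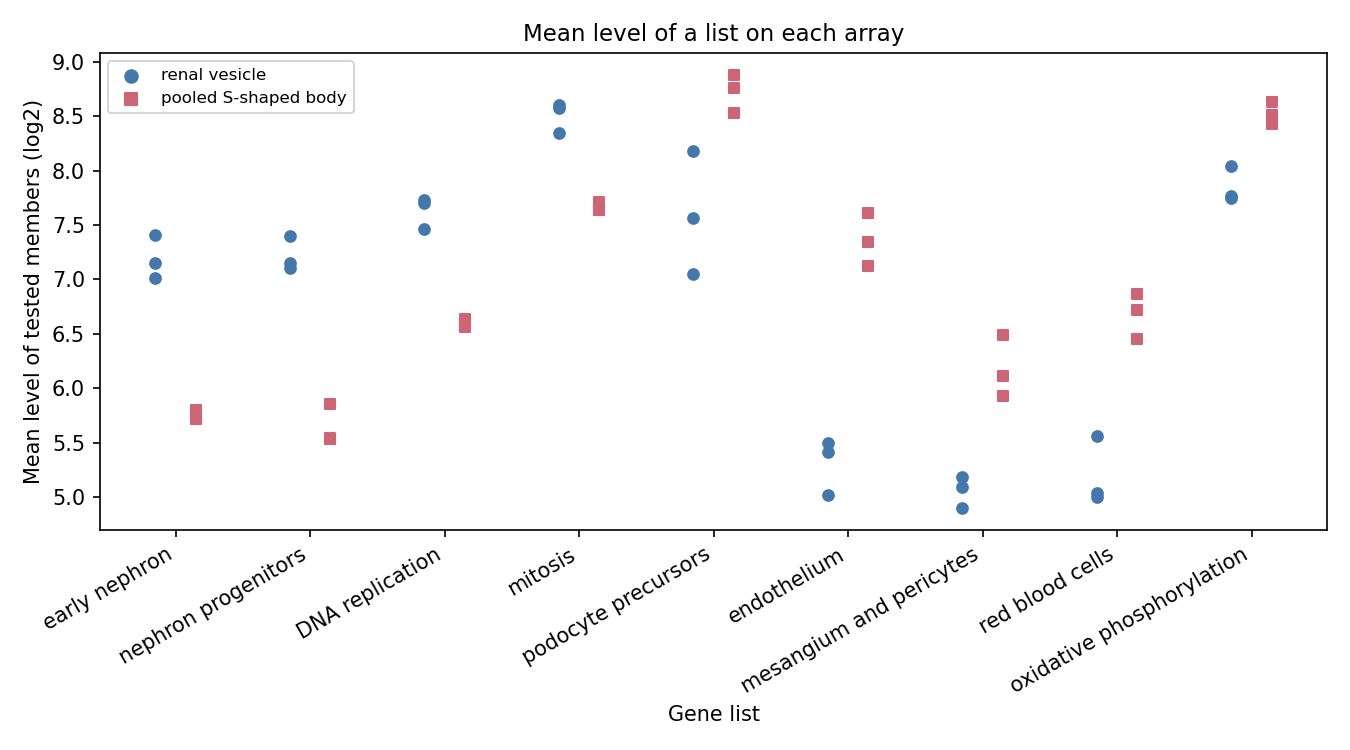
Mean level of the tested members of 9 gene lists on each array (log2), with renal vesicles as circles and pooled S-shaped bodies as squares. No list shown has arrays of one group inside the range of the other, and the renal vesicle arrays spread from 7.05 to 8.18 for podocyte precursors.

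DNA replication genes were lower in S-shaped bodies. Of 44 tested members 30 were lower, 2 higher and 12 not called, with a median change of −1.04 (47 on the array). The mean level of the list was 7.46 to 7.73 on renal vesicle arrays and 6.56 to 6.63 on S-shaped body arrays. The sequences before Pola1, the catalytic subunit of DNA polymerase alpha, and Mcm7, a subunit of the replicative helicase, are shown because E2F factors control many genes of DNA synthesis. The windows are as above, with the E2F-type words TTTGGCGC and TTTCCCGC, searched on both strands and counted together, in capitals. Both genes were chosen after their values were seen.
Pola1, chrX:93632156-93632405, minus strand: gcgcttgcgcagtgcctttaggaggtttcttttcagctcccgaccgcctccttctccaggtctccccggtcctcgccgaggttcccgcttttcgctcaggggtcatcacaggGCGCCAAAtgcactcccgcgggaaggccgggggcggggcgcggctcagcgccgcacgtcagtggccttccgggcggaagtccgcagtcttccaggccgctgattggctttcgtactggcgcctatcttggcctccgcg
Mcm7, chr5:138171884-138172133, minus strand: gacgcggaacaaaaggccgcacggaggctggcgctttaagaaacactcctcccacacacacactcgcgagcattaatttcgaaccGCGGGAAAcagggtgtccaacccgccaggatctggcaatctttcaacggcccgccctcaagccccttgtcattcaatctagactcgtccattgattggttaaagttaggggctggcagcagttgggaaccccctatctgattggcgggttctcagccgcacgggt
The match lay at 138 to 131 bases before the start of Pola1 and at 165 to 158 before that of Mcm7, in each case on the other strand. Of 42 replication genes with an entry in that table, 5 held a match (11.9%), against 366 of 27025 genes (1.35%). Of the 27 such members that were lower 3 did (11.1%), a share near that of the list. Pola1 read 9.26, 8.84 and 9.29 in renal vesicles and 7.54, 7.35 and 6.99 in S-shaped bodies (change −1.84 ± 0.21, adjusted p = 9.40e-05). Mcm7 read 8.20, 7.66 and 7.88 against 5.94, 5.59 and 5.70 (change −2.17 ± 0.21, adjusted p = 2.94e-05).

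Lig1, the ligase that joins Okazaki fragments, exceeded background on the renal vesicle but not the S-shaped body arrays. In renal vesicles it read 6.71, 7.04 and 7.36, and it was at least 5.17-fold lower in S-shaped bodies (adjusted p = 0.000278). Uhrf1, which guides maintenance methylation at the fork, was at least 5.89-fold lower (adjusted p = 3.73e-05), and Rpa2, a single-strand binding subunit, at least 4.13-fold lower (adjusted p = 0.000658). Pcna, the sliding clamp, stood apart from these. It read 10.76, 10.61 and 10.73 in renal vesicles and 10.66, 10.81 and 10.54 in S-shaped bodies (change −0.03 ± 0.12, adjusted p = 0.858), and its sign turned without S-shaped body replicate 3 (0.032).

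Mitosis genes gave 23 lower, 0 higher and 19 not called of 42 tested, with a median change of −0.73. Kifc1, a minus-end spindle motor, read 9.36, 8.85 and 9.75 in renal vesicles and 4.86, 5.18 and 6.62 in S-shaped bodies (change −3.77 ± 0.41, adjusted p = 6.53e-05). Kif11, the motor that separates spindle poles, read 8.87, 8.19 and 8.48 against 6.62, 6.46 and 6.60 (change −1.95 ± 0.21, adjusted p = 6.63e-05). Birc5, survivin, was under background in S-shaped bodies and at least 3.14-fold lower (adjusted p = 4.54e-05). Mki67, Cdk1 and Cdc20, which also mark dividing cells and were named after their values were seen, were among the 19 not called.

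Cell cycle control genes gave 3 higher and 7 lower of 25 tested. Mycn, a driver of progenitor proliferation, read 10.22, 9.86 and 10.09 in renal vesicles and 7.11, 7.46 and 7.43 in S-shaped bodies (change −2.72 ± 0.18, adjusted p = 5.13e-06). Its groups were separated by more than 2 log2 units with little spread in either. Gadd45a, a growth arrest gene, read 6.25, 8.97 and 7.58 against 10.02, 9.95 and 9.42 (change 2.20 ± 0.51, adjusted p = 0.00596). Cdkn1c, given with the podocyte genes, was the CDK inhibitor of this list that was higher.

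Wnt pathway genes gave 11 lower, 3 higher and 22 not called of 36 tested, with a median change of −0.46. Without renal vesicle replicate 3, 5 were higher. Dkk1, an inhibitor that binds the Lrp co-receptors, read 6.88, 5.94 and 6.68 in renal vesicles and was under background in S-shaped bodies, at least 3.57-fold lower (adjusted p = 0.00021). Its relative Dkk2 was under background in renal vesicles and read 7.14, 6.80 and 5.49 in S-shaped bodies, at least 3.81-fold higher (adjusted p = 9.40e-05). These paralogues thus moved in opposite directions.

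Notch pathway genes gave 4 higher and 4 lower of 21 tested, near the background shares, with a median change of −0.06. The higher count was 2 without renal vesicle replicate 4 or S-shaped body replicate 1 or 3. Dtx1, a ubiquitin ligase of the pathway, read 6.79, 5.53 and 6.03 in renal vesicles and was under background in S-shaped bodies, at least 2.73-fold lower (adjusted p = 5.85e-05). The receptor Notch2, which proximal nephron fate needs, changed by −1.89 ± 0.28 (adjusted p = 0.000463), with the other of its tested probe sets in the opposite direction.

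Of 30 BMP, TGF-beta and activin genes 8 were lower and 3 higher, with a median change of −0.11. The ligand Bmp4 read 10.23, 10.25 and 10.31 in renal vesicles and 7.82, 8.26 and 9.02 in S-shaped bodies (change −1.90 ± 0.24, adjusted p = 0.000169). Twsg1, an extracellular BMP modulator, read 9.55, 9.66 and 9.56 against 8.17, 8.20 and 8.23 (change −1.39 ± 0.12, adjusted p = 1.60e-05), with very little spread in either group. Tgfb2, a TGF-beta ligand, was under background in renal vesicles and at least 2.93-fold higher (adjusted p = 0.000981).

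Other growth factor signals gave 8 higher and 8 lower of 34 tested, near the background shares. Igfbp3, an IGF binding protein, read 6.75, 5.58 and 4.21 in renal vesicles and 9.79, 9.21 and 9.55 in S-shaped bodies (change 4.004 ± 0.49, adjusted p = 0.000139). Igfbp7, a binding protein of vessels, read 5.38, 8.77 and 6.58 against 10.26, 9.67 and 9.37 (change 2.86 ± 0.69, adjusted p = 0.00735). Both were separate between the groups, with renal vesicle levels spread over more than 2 log2 units.

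Respiratory chain genes were higher or not called with the settings used here. Of 48 tested oxidative phosphorylation genes 23 were higher and 0 lower, with a median change of 0.44. The lower count was 1 without S-shaped body replicate 3 and reached 4 among the other settings tried. Uqcrb, a small subunit of complex III, read 6.78, 6.63 and 6.99 in renal vesicles and 9.41, 9.33 and 9.18 in S-shaped bodies (change 2.50 ± 0.18, adjusted p = 7.45e-06). The complex I subunits Ndufa5 and Ndufb6 changed by 2.27 ± 0.29 and 2.67 ± 0.49 (adjusted p = 0.000159 and 0.00168). The core subunits Ndufs1, Ndufv1 and Uqcrc1, named after their values were seen, were not called.

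Glycolysis genes gave 7 lower and 2 higher of 19 tested, with a median change of −0.33, and 4 lower without S-shaped body replicate 2. The higher count was 1 without renal vesicle replicate 2 or S-shaped body replicate 2 or 3. The hexokinases parted. Hk2 read 9.03, 7.46 and 8.54 in renal vesicles and 5.53, 5.45 and 5.92 in S-shaped bodies (change −2.71 ± 0.34, adjusted p = 0.00016). Hk1 read 8.55, 8.07 and 8.58 against 10.01, 9.30 and 9.29 (change 1.13 ± 0.21, adjusted p = 0.00173). Pgam1, phosphoglycerate mutase, changed by −1.38 ± 0.13 (adjusted p = 2.99e-05), and Slc16a1, a lactate transporter, was at least 1.31-fold lower (adjusted p = 0.00197).

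Cytosolic ribosomal protein genes gave 6 higher, 1 lower and 23 not called of 30 tested, with a median change of −0.01. The higher count is near the background share, and the lower count reached 6 among the other settings tried. Rps19 had the largest change, from 9.01, 9.07 and 9.50 to 10.91, 10.49 and 10.81 (1.55 ± 0.26, adjusted p = 0.000889). Imprinted genes gave 8 higher and 1 lower of 22, with 5 higher without renal vesicle replicate 2 or S-shaped body replicate 1 or 3 and 0 lower without either of the latter. Solute carriers gave 7 higher and 6 lower of 31, near the background shares. Slc7a9, a subunit of the cystine transporter, was under background in renal vesicles and at least 3.50-fold higher (adjusted p = 0.000279), and the lactate and pyruvate carrier Slc16a7 was at least 1.64-fold lower (adjusted p = 0.000167).

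Actin genes gave 16 higher and 4 lower of 41 tested, with a median change of 0.21, and 2 were lower without renal vesicle replicate 2. Tmsb4x, which sequesters actin monomers, read 6.47, 6.60 and 5.35 in renal vesicles and 9.50, 9.22 and 9.23 in S-shaped bodies (change 3.18 ± 0.28, adjusted p = 1.83e-05). Myl9, a regulatory myosin light chain of smooth muscle, read 6.35, 6.89 and 6.37 against 9.26, 8.71 and 8.73 (change 2.36 ± 0.33, adjusted p = 0.000269). Neither gene's groups overlapped. Immediate early and heat shock genes gave 8 higher, 10 lower and 17 not called of 35, with a median change of −0.08.

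Among the genes with the largest changes on the array, several stand in no list. Fabp4, a fatty acid carrier of adipocytes and capillary endothelium, read 5.92, 5.30 and 4.12 in renal vesicles and 10.02, 10.58 and 9.64 in S-shaped bodies (change 4.97 ± 0.41, adjusted p = 1.23e-05). Apbb1ip, an adaptor that activates integrins through Rap1, was under background in renal vesicles and at least 11.05-fold higher (adjusted p = 4.10e-05). Frmd6, a FERM-domain protein of the Hippo pathway, read 4.13, 6.02 and 2.85 against 9.25, 8.59 and 8.30 (change 4.38 ± 0.62, adjusted p = 0.000318). For all 3 genes every S-shaped body array lay above every renal vesicle array, which the rule that selected them requires.

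In the other direction, Ube2s, a ubiquitin-conjugating enzyme of the anaphase-promoting complex, read 8.02, 7.98 and 7.73 in renal vesicles and was under background in S-shaped bodies, at least 9.47-fold lower (adjusted p = 2.19e-06). Slc32a1, the vesicular transporter of GABA and glycine, read 8.59, 7.29 and 7.37 against 2.85 on each S-shaped body array, at least 8.48-fold lower (adjusted p = 6.22e-06). C1qtnf12, a secreted C1q/TNF-related protein, read 8.44, 8.35 and 8.43 and was at least 13.4-fold lower (adjusted p = 5.98e-06). Car14, a membrane carbonic anhydrase, was at least 6.38-fold lower (adjusted p = 3.27e-05). These 4 genes were above background on each renal vesicle array and not above background on any S-shaped body array.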

How the data were processed

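Kidney RNA was hybridized to Affymetrix MG_U74Av2 arrays. The authors' deposited table holds 1 linear intensity per probe set and array, negative values included. Per the submitters' processing notes the tool was GCOS (version not given), and how probes were summarised or scaled is not given in the sources used here. Array medians differed by up to 17.8-fold, so the 12 arrays were quantile normalized without the 66 control probe sets. Values under 0 were set to 0, the pseudocount (25% of the median) was added, and values were put on a log2 scale. Probe sets under the 25th percentile of mean level over the 9 arrays fitted were left out. The fit used limma 3.58.1 in R 4.3.3 with renal vesicle, pooled S-shaped body and collecting duct arrays, two-sided tests with moderated variances that follow the mean, and was tested on simulated data. Cdh5 and Frmd6 were at 2.85 on all collecting duct arrays (SD 0 there, against 1.47 and 1.59 in renal vesicles). In such genes the collecting duct arrays pull down the SE. Background on an array is the distance by which the lowest 5% of deposited values lie below 0. A bound sets the bright group's mean against, per array, the higher of the lowest level above background and the gene's own level.

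Probe sets were named with the platform annotation: 10833 had 1 symbol (10817 of them matched in RefSeq), 396 several and 1193 none. A gene is represented by its single-symbol probe set with the highest mean, which gives 8251 genes on the array. All arrays were kept, and 0 pairs held identical values. The members and gene lists were chosen with earlier results of these data known. The text draws on genes selected by a rule: in each direction the 15 called genes that changed most without overlap between the groups, in each list the 4 called members that changed most and the 2 that changed least while above background on the 6 arrays, and genes listed by name. Part of those are printed, together with names from the lists. Promoter windows are from RefSeq, the first start listed per gene. The number of arrays limits the precision.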

Additional observations from a re-analysis of the deposited data

How the results depend on the processing

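Under the other settings tried, apart from those named next, 2448 to 3466 probe sets were called. On the deposited scale 5432 were called, 5103 higher and 329 lower, and the median change was 0.94. With a 2-fold minimum 2118 were called, 1049 higher and 1069 lower. Leaving out 1 of the 6 arrays gave 2770 to 3401 called, 1258 to 1626 higher and 1512 to 1775 lower. A fit of the 6 arrays alone, without collecting duct, gave 3092 called, 1462 higher and 1630 lower. Of 121 genes followed over 19 alternatives (the deposited scale aside), 110 were called, 98 kept call and direction wherever they were tested, 12 lost the call at least once (Sox4, Hoxc6, Ptpro, Foxd1, Vegfa, Col4a1, Cdh1, Cdh6, Itga3, Irx3, Igfbp7 and Hk1) and 0 changed sign. Of the 11 not called, 5 gained a call at least once and 2 changed sign. These were Cldn5, at −0.075 with 75th percentile scaling and from −0.26 (without renal vesicle replicate 2) to 0.67 (without renal vesicle replicate 3), and Pcna, from −0.10 to 0.032 (without S-shaped body replicate 3) when 1 array was left out. The replicate number as a block gave 2448 calls, 1156 higher and 1292 lower, of which 2344 were shared with the unblocked fit. Same-numbered arrays did not deviate together (r = −0.05 for number 2 and −0.09 for number 3, across probe sets). Only these numbers occur in both groups, so the check cannot decide whether a number marks a shared day or litter. The labels do not say what it marks. With the block the podocyte list had 11 higher genes. On the trimmed mean scale 1816 of the calls were higher and 1637 lower.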

Other observations

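Single S-shaped bodies, which enter no test here, gave levels that can be set beside those of the pools. Wnt4 and Slc32a1 were at 2.85 on all 3 single arrays, as on the pooled arrays. Dll1, also at 2.85 on the pooled arrays, read 5.51, 3.82 and 2.85 on the single arrays and was above background on 1 of them. C1qtnf12, under background in the pools, read 2.85, 7.96 and 3.24. Ptpro averaged 11.31 ± 0.34 in single structures and 11.47 ± 0.23 in pools, and Cdh5 averaged 10.36 ± 0.26 and 10.09 ± 0.15 (SD, n = 3 each). Hbb-y was the more variable gene, at 9.68 ± 2.87 in single structures against 11.94 ± 0.25 in pools. Gdnf averaged 3.97 ± 0.18 in single structures, 6.40 ± 0.32 in pools and 8.28 ± 0.42 in renal vesicles.

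Among the genes that were lower, the renal vesicle arrays also differed. Of the 30 DNA replication genes that were lower, 23 had their lowest renal vesicle level on replicate 3, as did 15 of the 23 mitosis genes and 697 of all 1369 genes that were lower. The same array had the highest podocyte list level of its group. Of the 23 oxidative phosphorylation genes that were higher, 17 had their highest renal vesicle level on replicate 4, against 354 of all 1207 genes that were higher (29.3%).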
